A study of Mus musculus with 16 samples.

Results

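Cd200r1 and Dok2 encode an inhibitory receptor of myeloid cells and the adaptor protein that this receptor recruits. Each gene has 1 differential methylation (DM) site in a table of 622 sites under 586 gene names, made from m6A-seq of mouse livers, so the pair holds 2 of 622 sites. They were taken by gene name, and the pair had been chosen by the effects that the authors deposited for the sites. Those effects and their p values are the authors' own comparison and are not given here, so the direction and size of the change at each site are not described.

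The livers came from 4 wild type mice (Albumin-Cre;Mettl14+/+) and 4 Mettl14 conditional knockout mice (Albumin-Cre;Mettl14flox/flox;Cre), in which the gene for this subunit of the m6A writer complex is deleted in liver. Mice of both genotypes carried Cre recombinase under the albumin promoter, which is active in hepatocytes, and all had been kept on a high-fat diet. Each mouse gave 1 INPUT and 1 m6A-IP library, which makes 16 libraries from 8 mice. The IP library holds the mRNA fragments that an m6A antibody bound, and the INPUT library holds the fragments before this step. The table gives no value for a single mouse or library, so the level of Cd200r1 or Dok2, its spread between mice and the depth of the libraries are unknown here.

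CD200R1 sits on the surface of macrophages, mast cells and other myeloid cells and binds CD200, a membrane protein of endothelial cells, neurons and some lymphocytes. It has no ITIM, the short motif through which most inhibitory receptors recruit phosphatases. Instead, tyrosines of its cytoplasmic tail are phosphorylated and bind the PTB domain of DOK2, which recruits RasGAP and dampens Ras and MAP kinase signalling. m6A is placed mostly on A within the motif RRACH (R is A or G, H is A, C or T) and is known for its high density near stop codons and in long last exons. In liver, macrophages are mostly Kupffer cells, in which the albumin promoter is not known to be active. In RNA of whole liver, fewer cells of a type and less RNA per cell cannot be told apart, and the cell type that gave the Cd200r1 and Dok2 fragments was not measured.

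The Cd200r1 site is shown first as spliced mRNA, 5′ to 3′, because it joins 2 exons. Lower case marks the end of exon 6 and capitals mark the start of exon 7, the last exon. The Dok2 site follows, with the stop codon in capitals, because the site contains the end of the reading frame. Both were read from GRCm38, the assembly also called mm10, on the + strand.
Cd200r1, chr16:44793378-44794231: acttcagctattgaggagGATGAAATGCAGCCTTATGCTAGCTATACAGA
Dok2, chr14:70778053-70778102: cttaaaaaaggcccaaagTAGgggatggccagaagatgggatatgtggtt

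The receptor's site lay in the coding sequence, on both sides of the last exon junction. The Cd200r1 gene (ENSMUSG00000022667.18) spans chr16:44765736-44794978, and its coding transcript has 7 exons and 1892 nt, with a coding sequence of 978 nt and a 3′UTR of 638 nt. The site comprised 2 blocks, 18 nt at the end of exon 6 (chr16:44793378-44793395) and 32 nt at the start of exon 7 (chr16:44794200-44794231). The blocks are separated by an intron of 804 bp, so a site of 50 nt on the mRNA covers 854 bp of the genome. Exon 6 is only 46 nt long, and the site took its last 18 nt. Exon 7 is 779 nt long and holds the rest of the reading frame and the whole 3′UTR. The middle of the site was 7 nt from the junction and 131.5 nt upstream of the first base of the stop codon.

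The adaptor's site lay at the end of the reading frame and far from any junction. The Dok2 gene (ENSMUSG00000022102.13) spans chr14:70766036-70778495, and its coding transcript has 5 exons and 1795 nt, with a coding sequence of 1236 nt and a 3′UTR of 422 nt. The site was 1 block inside exon 5, the last exon, which is 1037 nt long. It held the last 18 nt of the coding sequence, the stop codon TAG and the first 29 nt of the 3′UTR. Its middle was 6.5 nt past the first base of the stop codon and 619 nt from the nearest junction. Both sites therefore touched the last exon, the receptor's at its first bases and the adaptor's 595 nt or more inside it. On the scale of the whole transcript, the middle of the site was at 59.2% of the length of the Cd200r1 mRNA and at 76.7% of that of Dok2.

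**Figure D1:**
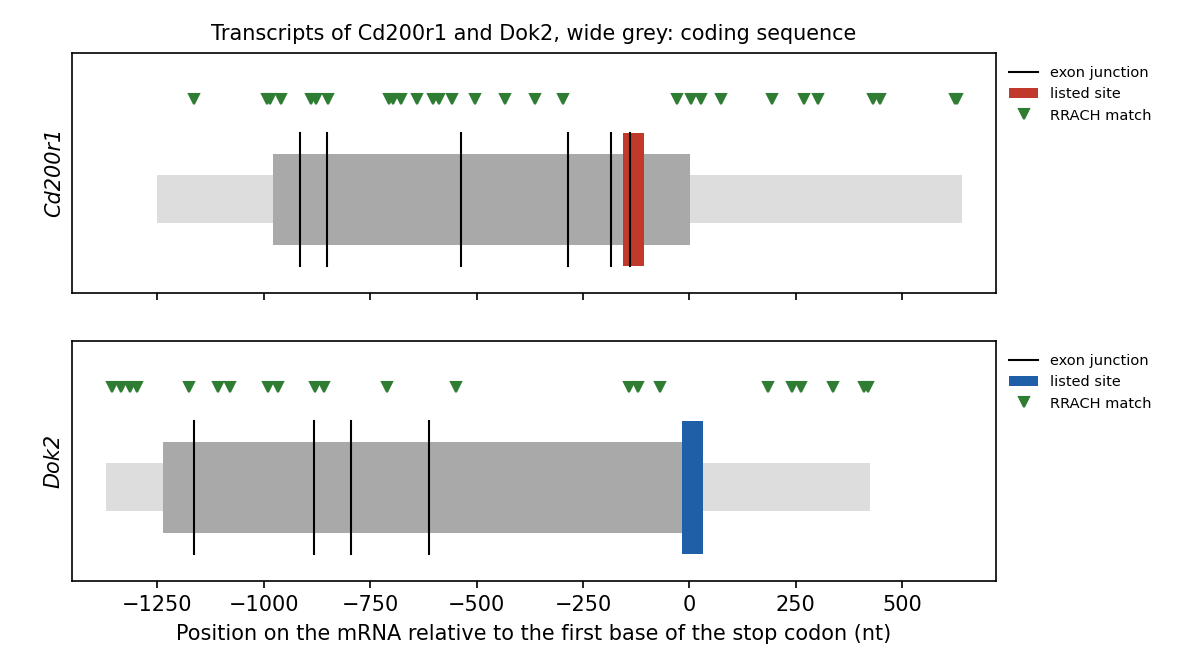
Transcript maps of Cd200r1 (top) and Dok2 (bottom), with the position on the mRNA in nt from the first base of the stop codon on the x axis. Wide grey boxes are coding sequence, narrow boxes are UTRs, black lines are exon junctions, coloured boxes are the listed sites and green triangles are RRACH matches, of which neither site holds any (29 matches on Cd200r1 and 22 on Dok2).

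The Cd200r1 site ran from codon 275 into codon 291 of 326, without the last base of codon 291. All these codons are in the part of the reading frame that encodes the cytoplasmic tail. The last exon holds 3 tyrosine codons in frame, and 2 of them, codons 286 and 289, lay inside the site, starting at its bases 34 and 43. The third, codon 297, ends the run of asparagine, proline, leucine and tyrosine codons (294 to 297) that encodes the tail motif known as the docking place of the DOK2 PTB domain. Between the last base of the site and this run lay 7 nt, and the overlap was 0 nt. It is followed by 29 codons before the stop codon. The site thus lay beside the codons of the DOK2 docking motif without covering them, and it covered the other tyrosine codons of the last exon.

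The Dok2 site covered codons 407 to 412, the last 6 of its 412 codons. DOK2 carries its PH domain, which binds membrane lipids, and its PTB domain in the first part of the protein, with the tyrosines that bind RasGAP further towards the C terminus. The site lay downstream of the codons for both domains.

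Neither site held RRACH. The wider form DRACH (D is A, G or T) and the core GGAC were also absent from both. With 25 nt of transcript added on each side, 0 RRACH matches were found. DRACH and GGAC were not searched there, and the bases before the Dok2 site hold TGACA, a DRACH match, within these 25 nt. The Cd200r1 site contains 16 A and 2 AC dinucleotides. The Dok2 site contains 17 A and 0 AC dinucleotides, so no motif that needs A followed by C can match within it. A motif that is absent says only that these letters are not in the window, and a DM site marks a bin of reads from longer fragments, not the modified base.

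The nearest RRACH of both sites was AGACT, in the coding part of the last exon in either gene. In Cd200r1 the A of this match was 102.5 nt downstream of the middle of the site, 78 nt past its edge and 29 nt before the stop codon. In Dok2 it was 74.5 nt upstream of the middle, 50 nt from the edge and 68 nt before the stop codon. These stretches are shown to the match, which is in capitals, and begin or end at the site. The Cd200r1 stretch is positions 1146 to 1225 of the transcript and starts with the base after the site. The Dok2 stretch is positions 1301 to 1352 and ends with the base before the site.
Cd200r1: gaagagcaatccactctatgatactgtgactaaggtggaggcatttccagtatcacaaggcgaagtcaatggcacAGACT
Dok2: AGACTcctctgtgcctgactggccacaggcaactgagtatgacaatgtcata

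On the other side the motif was farther away. The nearest match 5′ of the Cd200r1 site was GAACT in exon 4, 142 nt from its edge, and the nearest match 3′ of the Dok2 site was GGACC in the 3′UTR, 153 nt from its edge. Measured from A to A, Cd200r1 had no RRACH over 269 nt around its site, and Dok2 had none over 252 nt. The Cd200r1 stretch was the longest of the 28 intervals between neighbouring matches on that transcript, whose median was 37 nt. The Dok2 stretch was second of 21 intervals, after one of 408 nt, and their median was 56 nt. RRACH was absent from both sites and from the bases added on each side, so both stretches had to exceed these medians. Exceeding them adds nothing to that absence, and the ranks were not tested. All these distances are for RRACH only, and those to DRACH were not measured. The sequences printed above hold DRACH matches nearer to the sites, TGACT in Cd200r1 and both TGACT and TGACA in Dok2.

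Both transcripts carried the motif outside the sites. Cd200r1 carries 29 matches, or 15.3 per kb, of which 11 are in the last exon. Dok2 carries 22 matches, or 12.3 per kb, of which 10 are in the last exon. Over the transcripts of the 569 listed sites that could be placed, the median was 14.6 matches per kb, with quartiles of 13.2 and 16.4. Cd200r1 lay within this range and Dok2 below its lower quartile.

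In the table as a whole, 378 of 622 sites held RRACH (60.8%, 95% Wilson interval 56.9 to 64.5), so Cd200r1 and Dok2 belong to the other 244 sites (39.2%, 35.5 to 43.1). Sites without the motif in the 25 nt on either side as well were fewer, 91 of 569 placed sites (interval 13.2% to 19.2%). A site without any AC was rarer still, as in Dok2, with 40 of 622 (6.43%, 4.76 to 8.64). Of the placed sites, 3.34% were as far from RRACH as Cd200r1 or farther, and 8.08% as far as Dok2 or farther. Among the 229 placed sites without RRACH the median distance was 41.5 nt, with quartiles of 31.5 and 64.5 nt, so both members were above the upper quartile of this group as well. An interval without RRACH at least as long as that of Cd200r1 surrounded 35 of 557 sites (6.28%, 4.55 to 8.61). One at least as long as that of Dok2 surrounded 43 (7.72%, 5.78 to 10.2). The median was 87 nt over these sites, which include sites that hold RRACH. Without RRACH in the site or the 25 nt on either side, both members had to exceed this median. These lengths were not compared among sites without RRACH alone. The Wilson intervals cover counting error only, and these shares describe the listed sites, which have no test behind them here.

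**Figure D2:**
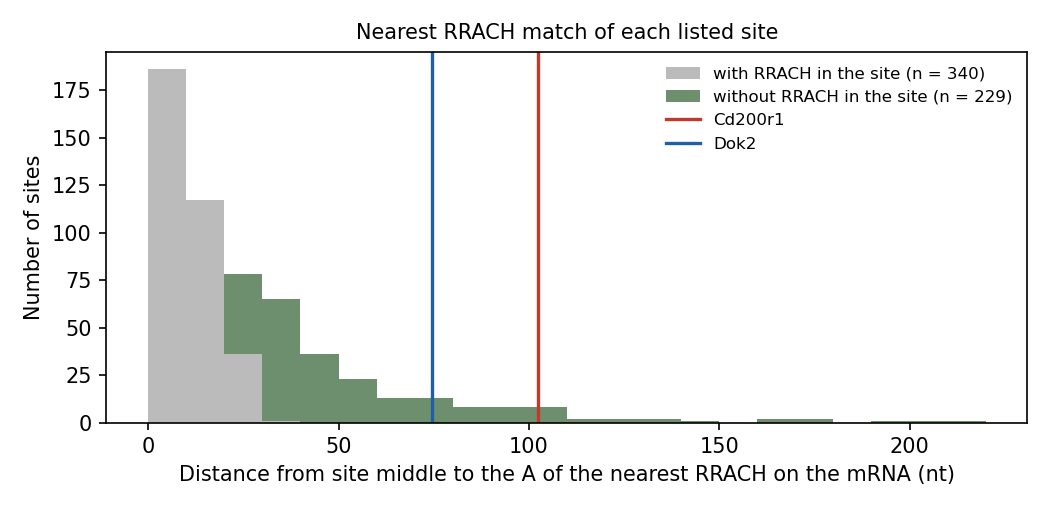
Number of placed sites (y axis) by the distance in nt from the middle of the site to the A of the nearest RRACH on the mRNA (x axis, bins of 10 nt), with sites without RRACH (green) stacked on sites that hold it (grey). The blue line is Dok2 at 74.5 nt and the red line is Cd200r1 at 102.5 nt, both to the right of most sites, whose median is 18.5 nt.

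Both members were nearer to the stop codon than most listed sites. The median distance over 569 placed sites was 569.5 nt, with quartiles of 205.5 and 1234.5 nt. Cd200r1, at 131.5 nt, was below the lower quartile, and 18.1% of sites were as near or nearer. Dok2, at 6.5 nt, was among the 7 nearest sites (1.23%, 0.597 to 2.52). Sites within 400 nt of the stop codon made up 41.3% (37.3 to 45.4), and sites that overlap the stop codon, as that of Dok2 did, made up 3.16% (18 of 569, 2.01 to 4.94). Of these 18 sites, 9 lacked RRACH, as Dok2 did.

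The members differed in their distance to exon junctions. Sites of more than 1 block were 43 of 622 (6.91%, 5.17 to 9.18), of which 41 had 2 blocks. Sites across the last junction, as in Cd200r1, were 11 of the 547 placed sites on transcripts with a junction (2.01%, 1.13 to 3.56). Of these 11, 8 were within 400 nt of the stop codon and 4 lacked RRACH, Cd200r1 being in both groups. A middle as near to a junction as that of Cd200r1 was found in 2.38% of sites, while 72.2% were as near as Dok2 or nearer. The shorter block of Cd200r1, 18 nt, was longer than the median of 14 nt in the 41 sites of 2 blocks, where 15 had a shorter block of at least this length.

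**Figure D3:**
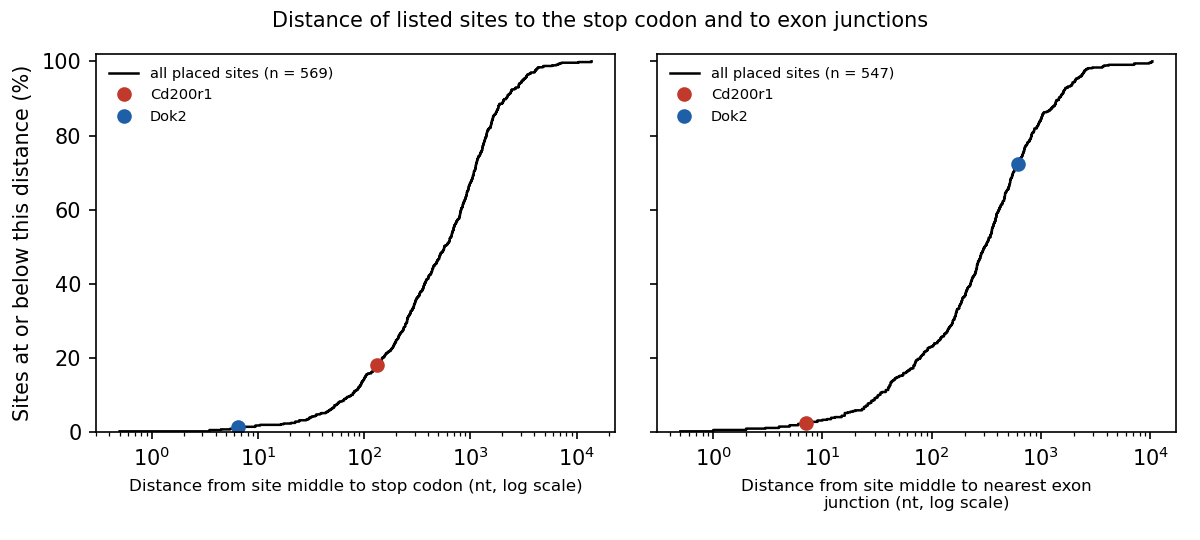
Cumulative share of placed sites (y axis, %) by the distance in nt from the middle of the site to the stop codon (left, 569 sites) and to the nearest exon junction (right, 547 sites), both on a log scale. Cd200r1 (red) lies at 131.5 nt from the stop codon and 7 nt from a junction, and Dok2 (blue) at 6.5 nt and 619 nt, so that their order turns between the panels.

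The GC content was 42% in the Cd200r1 site and 46% in the Dok2 site, against a median of 52% over all sites, with quartiles of 44 and 60%. Cd200r1 was below the lower quartile and Dok2 within the quartiles. The same or a lower GC content was found in 19.5% of sites for Cd200r1 and in 32.3% for Dok2. Their last exons, of 779 and 1037 nt, were both shorter than the lower quartile of 1039 nt for placed sites, where the median was 1882 nt. A last exon that holds the end of the site was common, 62.0% of placed sites, and is shared by both members.

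Copies of the sites were searched in the genome and in spliced transcripts. At a minimum of 95% for both identity and cover, and at 80% for both, 0 other places in the genome matched either site. The genome search could not find the Cd200r1 site itself, because of its intron, nor a copy split in the same way. In 141767 spliced GENCODE transcripts, the same limits found Cd200r1 in its own 3 transcripts, Dok2 in 1 of its own, and 0 transcripts of other genes. The transcripts of the neighbouring receptor genes Cd200r2, Cd200r3 and Cd200r4 were compared with the 50 nt of the Cd200r1 site at every position without gaps, and the best positions had 23, 24 and 23 identical bases. For the Dok2 site the best positions in Dok1 and Dok3 had 26 and 25 identical bases of 50. No other listed site lay within 1 Mb of either member, the nearest being in Pvrl3, 1654 kb from Cd200r1, and in R3hcc1, 1071 kb from Dok2.

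Every annotated coding transcript that holds a site placed it alike. GENCODE holds 3 Cd200r1 transcripts, all with the site, of which 1 is coding. The others are annotated for nonsense-mediated decay, and the site follows their annotated stop codon. Of 8 Dok2 transcripts, 1 is coding, and it is the only one that holds the whole site. In RefSeq, 1 coding transcript of Cd200r1 and 8 of Dok2 hold the sites, and they place them at the same 131.5 and 6.5 nt from the stop codon. Most of these Dok2 transcripts are predicted models. The paper warns that correcting by the INPUT reads of a whole gene under-represents variation of single exons through alternative splicing. Such variation was not tested for these sites.

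Few genes of any kind had a site: 571 of 21877 annotated coding genes, or 2.61%, whether or not the authors could test them. Lists of 5 to 16 genes would therefore hold few or none at this share, and the counts below are read only as a description. Of the 5 genes of the CD200 receptor family and its ligand in the annotation, Cd200r1 had a listed site, and Cd200, Cd200r2, Cd200r3 and Cd200r4 had none. The name Cd200r1l is not in the annotation used. Of 8 Dok adaptors and partners, Dok2 had one, while Dok1, its close relative in myeloid cells, and Rasa1, which encodes RasGAP, were not listed. Cd200r1 and Dok2 were chosen as genes with a site, so each of their lists was bound to hold a listed gene. Of the 13 genes of the Ras and MAP kinase relay 0 had a site, and 0 of 12 genes of other inhibitory myeloid receptors and phosphatases, such as Sirpa and Ptpn6 (SHP-1), had one, against 2.61% of all coding genes. Which bins were tested and not listed is not known here, so a gene without a site is not a gene without a change. Bins with few IP reads had been removed before the authors' test.

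Of 16 markers of Kupffer cells and macrophages, 2 had a site, C1qb and C1qc, which encode chains of the complement component C1q. Beside 2.61% of all coding genes, a list of this size is too short to set apart. The C1qc site (chr4:136889993-136890090) was placed like that of Dok2, over the stop codon, but is longer than that of Dok2. Its middle was 3.5 nt past the first base of the stop codon, and it held 0 RRACH matches. The C1qb site was 649.5 nt from the stop codon and also had 0 matches. The defining markers Clec4f, Vsig4, Timd4, Adgre1 and Csf1r had no listed site. Of 10 hepatocyte markers Apob had 3 sites, of 6 endothelial markers Eng had 1, and 0 of 5 stellate cell markers and 0 of 6 markers of T and B cells were listed, numbers too small to compare between cell types. The levels of these markers in the libraries are not given by the table, and their part in the Cd200r1 and Dok2 sites was not tested.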

How the data were processed

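Livers of 8 mice gave 16 m6A-seq libraries (4 mice per genotype, INPUT and m6A-IP). The authors mapped reads to mm10 with HISAT2 (version not given in the sources used here), counted them in bins along joined exons, corrected the IP counts for IP efficiency and INPUT level, dropped bins with few IP reads, tested genotype per bin with RADAR over all mice and joined adjacent significant bins. The table the authors deposited holds coordinates, exon blocks, a genotype coefficient and its p value. The last 2 columns are the authors' own comparison and were not used. Depth per library is unknown, and no test over mice was possible.

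Starts were counted from 1, since all 90 inner block edges then lie on exon edges. Sites were placed on the longest coding GENCODE M21 transcript by symbol (585), older symbol (21) or not at all (16), and 569 of 622 fitted whole. Other matches were searched with BLAST+ 2.17.0 (word size 16, 95% identity and cover). samtools 1.23.1, pysam 0.24.0, Python 3.11.15, SciPy 1.17.1, NumPy 2.4.6 and matplotlib 3.10.9 were used. Placement and motif search were tested on simulated data. Members and lists were chosen with earlier results of these data known. The genes named are Cd200r1, Dok2 and list genes with a site. Others were named after the table was seen. Alternatives were other transcripts, distances, motifs, flanks, match limits, block counting and 1 site per gene.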

Additional observations from a re-analysis of the deposited data

How the results depend on the processing

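Of 26 values recomputed under an alternative, 23 stayed within the limits set for them and 3 moved. Not all of the 23 could have moved. The Dok2 site has 0 AC dinucleotides, which fixed its DRACH and GGAC counts at 0. GGAC is part of an RRACH match unless G follows it or the site ends there. The GGAC count of Cd200r1 therefore had little room to move. Other values came from 8 RefSeq transcripts of Dok2, all with the nearest junction at the same 619 nt. The genome search could not find a copy of the Cd200r1 site split by its intron. Measured from the nearest end of the site instead of its middle, the distance to the stop codon was 107 nt for Cd200r1 and 0 nt for Dok2, so the order of the members held. With starts counted from 0, as in BED files, 0 of the 2 inner block edges of Cd200r1 lay on an exon edge, and 0 of 90 over the table. RRACH, DRACH, GGAC and RRACH with 25 nt added on each side all gave 0 matches in both sites. With 1 site per gene, 41.6% of sites were within 400 nt of the stop codon and 7.34% had more than 1 block, and over sites of exactly 50 nt 6.98% had more than 1 block and 60.6% held RRACH. The RefSeq transcripts and the search of spliced transcripts, which found 0 matches in other genes, were added after the data were seen. No other coding GENCODE transcript holds either site, so that alternative gave no value. No paired analysis was possible because the table holds no value per mouse. For the same reason no mouse could be left out. A listed site cannot be read as precise or imprecise without the depth behind it.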
